A study of Mus musculus with 16 samples.

Results

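The livers of mice that had both a high-fat diet and perfluorooctanoic acid (PFOA) were compared with the livers of mice that had neither. The comparison takes 8 of the 16 libraries of the study: the 4 of the group HFD_PFOA and the 4 of the group CD_vehicle, chosen by the labels of diet and treatment. RNA was sequenced from bulk liver, 1 library per mouse. All mice were C57BL/6, a common inbred laboratory strain, and were 29 to 30 weeks old at collection. CD_vehicle mice ate a control diet (CD) and were given vehicle. HFD_PFOA mice ate a high-fat diet (HFD) and were given PFOA. The diet ran for 16 weeks before treatment and through the 8 weeks of treatment in every group. The other 8 libraries are the single exposures, with 4 mice each: CD_PFOA (control diet with PFOA) and HFD_vehicle (high-fat diet with vehicle). The labels state neither the sex of the mice, nor the dose of PFOA, nor a batch. The question was how large the change under both exposures was, and whether it was smaller or larger than the changes under the single exposures added together.

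PFOA is a long-lived fluorinated surfactant shaped like a fatty acid. In rodent liver it is known as an activator of PPARA, a nuclear receptor that binds DNA with RXR and switches on genes that take up, bind and burn fatty acids in peroxisomes, mitochondria and microsomes. It is also known to act on CAR and PXR, the receptors that switch on drug-metabolising enzymes. A long high-fat diet loads hepatocytes with triglyceride and is known for larger lipid droplets, scavenging macrophages and collagen deposition.

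Expression is given as CPM, a gene's counts for every 1000000 counts of its library, after scaling between libraries. Changes are on a log2 scale, on which 1 stands for a 2-fold change. The combined change is HFD_PFOA against CD_vehicle. The sum adds the change of CD_PFOA and that of HFD_vehicle, each against CD_vehicle. On the log2 scale a gene that follows the sum has its fold changes multiplied. Each test used edgeR's quasi-likelihood method over 14998 genes with Benjamini-Hochberg adjustment, and a gene was called at adjusted p under 0.05. "Rose" and "fell" are used of called genes, and errors beside log2 changes are standard errors. The difference from the sum is the combined change minus the sum, tested in the same fit. The combined and the single changes share the 4 CD_vehicle libraries.

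The 8 libraries held 23485718 to 25778125 counts each. The 9 hepatocyte markers in the table summed to 101259 to 140448 CPM in CD_vehicle and 53685 to 66083 CPM in HFD_PFOA. Some libraries stood apart from the others of their group. CD_vehicle 4 was high in lymphocyte genes, with 279.7 CPM of the immunoglobulin gene Igkc against 5.81 to 11.1 CPM in the other CD_vehicle libraries. Over 9 tested B and plasma cell markers its median deviation from the other CD_vehicle libraries was 3.53 on the log2 scale, and over 22 male-biased liver genes it was −0.97. CD_vehicle 4 was also above the mean of the other controls in 27 of 30 matrix genes and 32 of 33 interferon and antigen presentation genes. On the first main axis of variation (principal component) of log2 CPM over the 16 libraries, it lay at −41.2. The other controls lay at −72.7 to −62.5 and HFD_vehicle at −31.9 to −18.4. On the second axis CD_vehicle 4 lay at −16.7, the other controls at 18.8 to 50.5 and HFD_vehicle at −47.4 to −32.6. CD_vehicle 1 was above the mean of the other CD_vehicle libraries in 24 of 24 acute phase genes, with a median deviation of 1.70. HFD_PFOA 1 was above the mean of the other HFD_PFOA libraries in 22 of 22 male-biased genes, with a median deviation of 0.997. It was low in cell cycle genes, with −0.74. The spread within a group was wider in CD_vehicle, where the median SD of log2 CPM over genes was 0.32, than in HFD_PFOA, where it was 0.23. The CD_vehicle mean enters the combined change and the difference from the sum with opposite signs.

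Double exposure changed 4485 genes, 29.9% of those tested. Of these, 2233 rose (14.9%) and 2252 fell (15%). At least 4-fold changes were more often rises, with 489 genes up and 197 down, and those of at least 16-fold numbered 125 and 28. In 4107 genes (27.4%) no HFD_PFOA library overlapped a CD_vehicle library. PFOA alone changed 3656 genes (24.4%), 1763 higher (11.8%) and 1893 lower (12.6%). The high-fat diet alone changed 1561 genes (10.4%), 779 higher (5.19%) and 782 lower (5.21%). The median change over all genes tested was 0.00 for the combined exposure. Scaling by library totals alone moved that median to 0.18 and gave 3406 rises and 1331 falls, so the split of rises and falls depends on the scaling and the changes below are relative to the median gene. Of the 4485 genes, 1158 were called for neither single exposure, and 1 of these, Arhgef26, differed from its sum.

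The 8 genes with the largest rises had no counts in any CD_vehicle library. Otop1, which encodes a proton channel, had 0 counts in all 4 CD_vehicle libraries and all 4 HFD_vehicle libraries (chr5:38275972-38304217, plus strand; this and all later positions are from GENCODE M21 on GRCm38 and span the whole gene). It measured 51.6, 35.4, 27.1 and 54.6 CPM in HFD_PFOA and 21.3, 16.6, 21.3 and 19.5 CPM in CD_PFOA. All 4 HFD_PFOA values lay above all 4 CD_PFOA values, but no sum on the log2 scale exists for a gene at 0 in the controls. Against a floor of 3 counts over the CD_vehicle group, Otop1 was at least 1269-fold higher under both exposures. Fabp3, the fatty acid-binding protein of heart muscle (chr4:130308595-130315463, plus strand), was also at 0 in all CD_vehicle libraries. It reached 25.4, 23.2, 19.6 and 29.9 CPM in HFD_PFOA, at least 740.0-fold higher, against 17.9, 6.91, 5.69 and 12.2 CPM in CD_PFOA. Ucp3, a mitochondrial carrier best known from muscle, was at least 355-fold higher, and Sptlc3, a subunit of the enzyme that starts sphingolipid synthesis, at least 412-fold. The other 4 of the 8 largest rises were Fam83b, the potassium channel subunit Kcnq3, the vomeronasal receptor Vmn2r3 and the sodium channel subunit Scnn1g, at least 275-, 129-, 97.9- and 68.7-fold higher. All 8 had 0 counts in every CD_vehicle library, so their fold changes are lower bounds that cover counting error only.

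The largest falls included hepatocyte genes known to be more active in males. Hsd3b5, a steroid dehydrogenase of male mouse liver (chr3:98618634-98630252, minus strand), measured 34.6, 75.8, 52.6 and 1.45 CPM in CD_vehicle and 0.254, 0, 0.0389 and 0.313 CPM in HFD_PFOA. The groups did not overlap, which was a condition for naming the 8 largest falls. CD_vehicle 4 lay far below the other 3 controls. The combined change was −8.04 ± 0.96 (edgeR adjusted p = 2.91e-06). Slco1a1, a basolateral transporter that takes organic anions into hepatocytes (chr6:141907282-141946962, minus strand), measured 212, 352, 288 and 62.3 CPM in CD_vehicle. Under both exposures it measured 7.37, 3.48, 4.32 and 4.78 CPM, a change of −5.52 ± 0.67 (edgeR adjusted p = 3.79e-06). Here too CD_vehicle 4 was the lowest control and the groups were far apart. The difference of Slco1a1 from the sum was not called with all libraries and was 3.62 without CD_vehicle 4 (edgeR adjusted p = 0.0187). Serpina12, which encodes the serpin vaspin, fell from 37.3 ± 3.82 to 0.254 ± 0.297 CPM (mean ± SD, n = 4), a change of −7.18 ± 0.39. Lrtm1 fell by 8.24, the calcium pump gene Atp2b2 by 5.79, Mmd2 by 5.08, the glycosyltransferase gene A4gnt by 5.0 on the log2 scale. The transcription factor gene Bhlha15 fell by 4.58. The size of the fall of Bhlha15 depends on CD_vehicle 1, at 17.8 CPM against 0.504 to 2.61 CPM in the other controls. Without CD_vehicle 1 its change was −2.53 (edgeR adjusted p = 0.0184), and with CD_vehicle 1 and 4 left out it was −1.53 (edgeR adjusted p = 0.181).

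**Figure D1:**
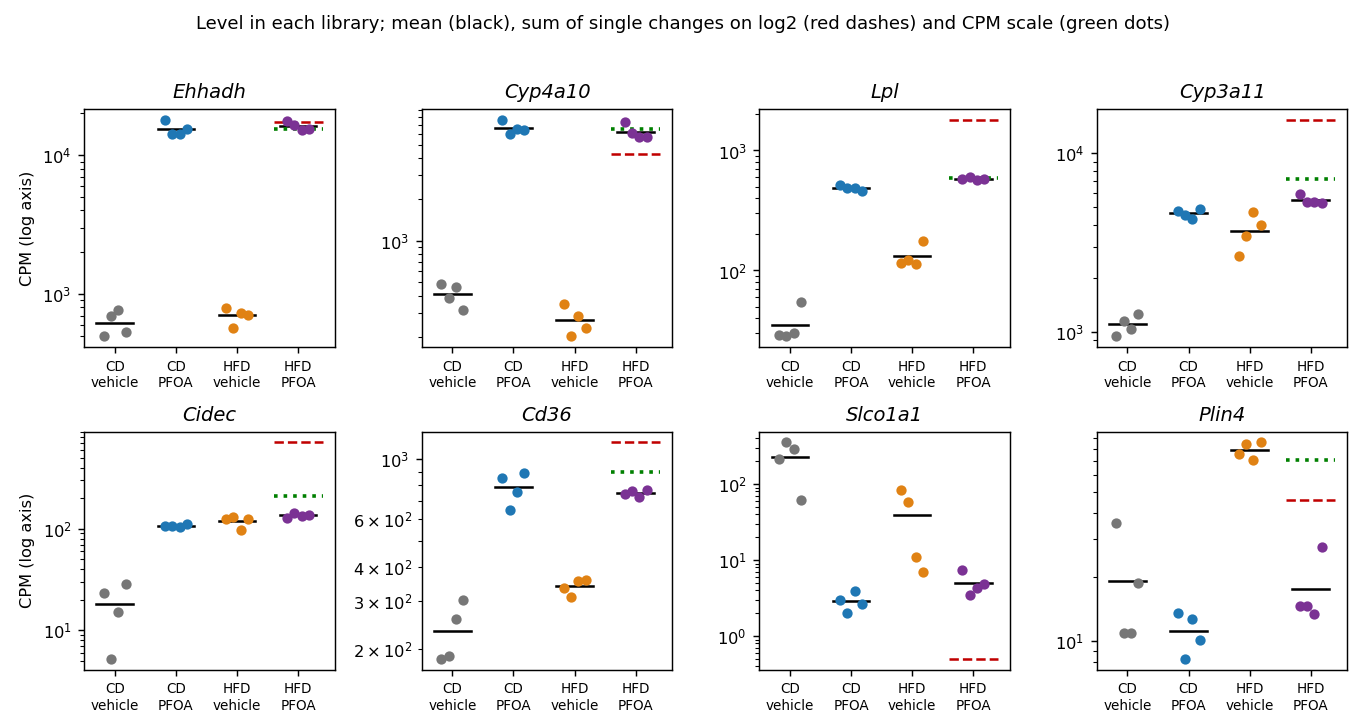
CPM in each of the 16 libraries (points, 4 per group, log axis) for 8 genes, with the group mean as a black line. At HFD PFOA the red dashes mark the level expected if log2 changes added and the green dots the level if CPM differences added; Lpl sits on the green mark at 584 CPM and under the red mark at 1806 CPM.

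Genes that burn fatty acids rose under double exposure. Here and in the lists below, the counts stand against 14.9% of all tested genes that rose and 15% that fell, and the medians against 0.00. A list's median difference from the sum is taken gene by gene and need not equal the gap between its medians. In the peroxisomal list, 18 of 23 tested genes rose and 2 fell, with a median combined change of 1.19. PFOA alone gave a median of 1.18, the high-fat diet alone −0.07, and the sum had a median of 1.09. In mitochondrial oxidation and ketogenesis 19 of 24 rose and 0 fell, with medians of 1.01 combined and 0.95 for the sum. Of 25 other PPARA-responsive genes, 20 rose and 1 fell, with medians of 1.57 and 1.90. The median difference from the sum was 0.14 in the peroxisomal list, −0.04 in the mitochondrial list and −0.01 in the other PPARA-responsive genes. In these 3 lists and in omega-oxidation, 0 genes differed from their sum with all libraries, where 0.207% of all genes did. Without CD_vehicle 4, the members Ucp2, Cyp4f14, Cd36 and Aqp7 were called smaller than their sum and Acsl3 larger. With CD_vehicle 1 and 4 left out, 1 was smaller and 2 were larger in the peroxisomal list, and 1 and 1 in the mitochondrial list. In omega-oxidation the numbers were 1 and 3, and in the other PPARA-responsive genes 2 and 0.

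Ehhadh, the bifunctional enzyme of peroxisomal beta-oxidation (chr16:21761287-21787807, minus strand), measured 498, 698, 763 and 536 CPM in CD_vehicle and 17753, 16489, 15222 and 15372 CPM in HFD_PFOA. Every exposed library exceeded every control more than 10-fold. This was a combined change of 4.70 ± 0.16 (edgeR adjusted p = 8.40e-14), against 4.63 ± 0.16 for PFOA alone and 0.17 ± 0.13 for diet alone. Its difference from the sum was −0.10 with a 95% interval of −0.50 to 0.30. Acot1, a thioesterase that splits fatty acyl-CoA (chr12:84009490-84018371, plus strand), measured 15.9, 20.5, 24.3 and 16.6 CPM in CD_vehicle and 578, 587, 507 and 529.5 CPM in HFD_PFOA. Its HFD_PFOA mean of 551 CPM was next to the CD_PFOA mean of 549 CPM, with SDs of 38.5 and 46.4. The difference from the sum was 0.32, interval −0.10 to 0.73. Acot2, its mitochondrial relative, rose by 5.20 ± 0.21, and the long-chain fatty acid transporter gene Slc27a1 by 5.53 ± 0.20. Pex11a, which drives the division of peroxisomes, rose by 1.96 ± 0.13, and the carnitine transporter gene Slc22a5 by 2.45 ± 0.13. Acot1 and Acot2 are close paralogs, so reads shared between them may blur their levels.

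Pdk4, the kinase that spares glucose by shutting pyruvate dehydrogenase, measured 21.1, 30.9, 32.5 and 80.1 CPM in CD_vehicle and 565, 511, 488 and 466 CPM in HFD_PFOA. No library overlapped, and the change was 3.62 ± 0.32 against a sum of 2.64. The difference of 0.98 ± 0.41 did not pass the test (edgeR adjusted p = 0.354). Fgf21, a hormone secreted by liver under PPARA control, rose by 1.65 ± 0.37 with overlapping libraries, and Cpt1a, the entry gate for fatty acids into mitochondria, rose by 0.51 ± 0.11.

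Microsomal omega-oxidation had the largest median of the 27 pathway lists. Of 11 tested members 8 rose and 2 fell, with a median combined change of 2.29. The medians were 1.99 for PFOA alone, −0.47 for diet alone and 1.38 for the sum. Gene by gene, the median difference from the sum was 0.28. Cyp4a10, a fatty acid omega-hydroxylase (chr4:115518264-115533649, plus strand), measured 489, 387, 463 and 317 CPM in CD_vehicle and 7321, 6095, 5713 and 5693 CPM in HFD_PFOA. Diet alone lowered Cyp4a10 by 0.63 on the log2 scale (edgeR adjusted p = 0.0129), yet the combined change of 3.91 ± 0.17 was close to that of PFOA alone, 4.00 ± 0.17. The difference from the sum was 0.53 ± 0.22 and did not pass the test (edgeR adjusted p = 0.347). Cyp4a31 rose by 7.18 ± 0.31 and Cyp4a14 by 3.97 ± 0.18, both of the same gene cluster, where reads can be shared between near-identical copies. Cyp4f14, which hydroxylates leukotrienes and other fatty acids, went the other way, from 213, 247, 214 and 172 to 17.3, 9.7, 15.6 and 12.6 CPM, a change of −3.94 ± 0.17.

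Lipid droplet genes rose in part, and in Cidec the combined change fell short of the sum. Of 19 tested members 9 rose and 2 fell, with a median of 0.91 against 1.13 for the sum. Gene by gene, the median difference from the sum was −0.07. Cidec, which fuses small droplets into large ones (chr6:113424634-113435760, minus strand), measured 23.4, 5.22, 15.1 and 28.6 CPM in CD_vehicle and 129, 143, 134 and 137 CPM in HFD_PFOA. The single exposures had already brought it to 107, 106, 103 and 111 CPM (CD_PFOA) and 125, 132, 96.7 and 126 CPM (HFD_vehicle). All 4 doubly exposed libraries thus lay above all 4 of PFOA alone, but by little. The combined change was 2.91 ± 0.29, against 2.56 ± 0.29 and 2.73 ± 0.29 for the single exposures, whose sum is 5.29. The difference from the sum was −2.38 ± 0.39 (edgeR adjusted p = 0.016), and on the linear scale too the mean of 136 CPM was under the 209 CPM that adding CPM would give (limma adjusted p = 0.00182).

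Plin2, the main coat protein of hepatocyte droplets, did not differ from the sum by test. It measured 796, 547, 597 and 597 CPM in CD_vehicle and 1776, 2102, 1779 and 1933 CPM in HFD_PFOA, without overlap. Its combined change was 1.58 ± 0.13 and its difference from the sum 0.09, interval −0.28 to 0.46. Cidea, another droplet-fusing protein, rose by 3.08 ± 0.40 from 20.01 ± 12.9 to 170.1 ± 53.5 CPM, with a sum of 3.52. Plin4, a droplet coat gene of the diet (chr17:56100591-56109803, minus strand), stood at 75.3, 84, 70.6 and 85.6 CPM in HFD_vehicle but at 14.6, 14.6, 13.3 and 27.6 CPM in HFD_PFOA. These last values overlapped those of CD_vehicle, 35.7, 10.9, 11 and 18.6 CPM, and the combined change was −0.12 ± 0.30 (edgeR adjusted p = 0.797). The diet alone had raised it by 2.05 ± 0.30. Its difference from the sum, −1.39 ± 0.42, missed the threshold on the log2 scale (edgeR adjusted p = 0.182) and passed on the linear scale (limma adjusted p = 6.48e-04). Leaving out CD_vehicle 1, at 35.7 CPM the highest control, gave a difference of −1.89 (edgeR adjusted p = 0.00623). With CD_vehicle 1 and 4 both left out, the combined change turned to 0.68 (edgeR adjusted p = 0.0392).

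Over all genes, only a small number differed from the sum by test. The difference was called in 31 genes (0.207%), 10 with a combined change above the sum (0.0667%) and 21 below it (0.14%). At an unadjusted p under 0.05 the number was 1638. Of the 4485 genes changed by double exposure, 21 had a combined change smaller than the sum, 13 of them rises and 8 falls. In 2 further genes a fall went beyond the sum, which was itself a small rise. When CPM differences were added in place of log2 changes, 47 were smaller than the sum and 7 larger, and 25 differences were called on both scales. On the log2 scale the remaining 4462 had no called difference, which does not show that they followed the sum: the median standard error of the difference was 0.29.

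As a description without a test, the sum was the larger of the pair for most changed genes. Among the 2233 genes that rose, the median combined change was 0.95 and the median sum 1.18, and the sum exceeded the combined change in 72.6%. Among the 489 that rose at least 4-fold the medians were 2.96 and 3.70, and the median difference was −0.88. The 2252 genes that fell had medians of −0.65 and −0.80, with the sum lower in 72.0%. For the 197 that fell at least 4-fold the medians were −2.73 and −3.41. These genes were chosen by their combined change, and the CD_vehicle libraries enter both quantities, so the medians support nothing by themselves.

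**Figure D2:**
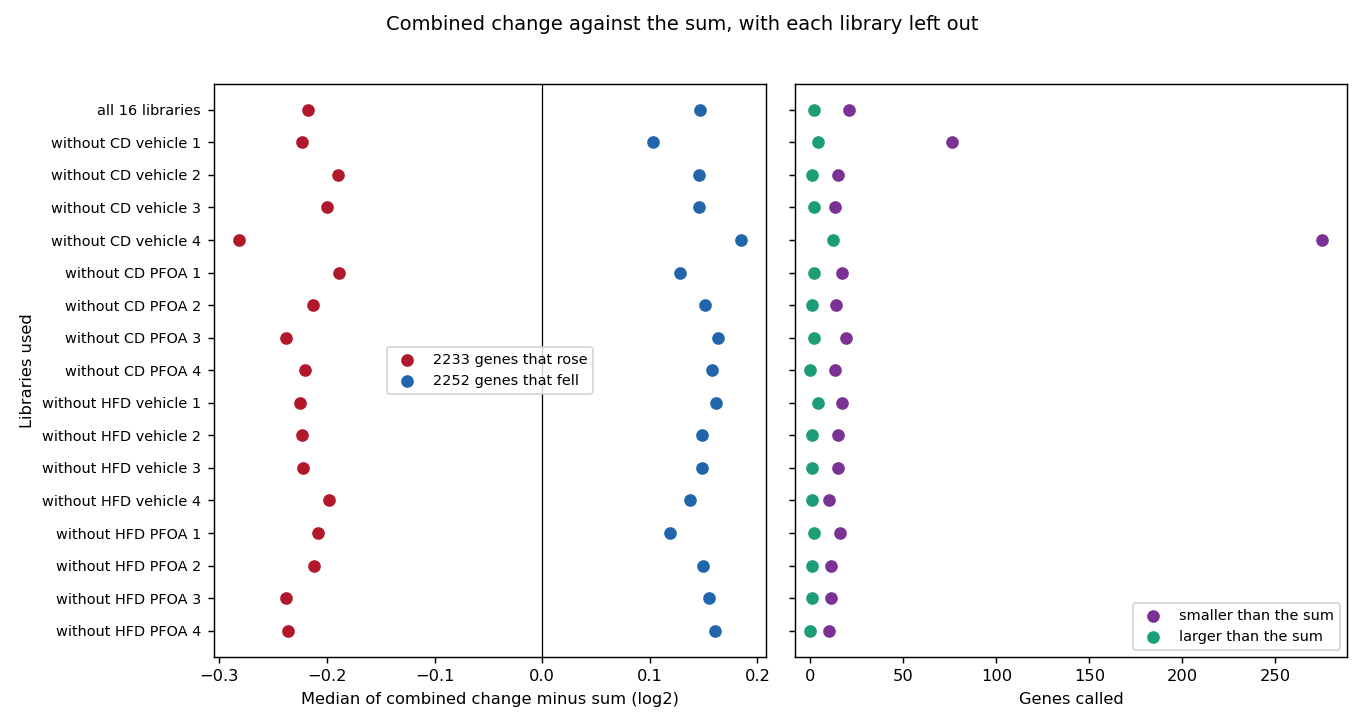
Left, the median difference from the sum (log2) over the 2233 genes that rose and the 2252 that fell, with all 16 libraries and with each library left out. Right, the number of genes called smaller (purple) or larger (green) than the sum; it is 21 and 2 with all libraries, and 275 and 12 without CD_vehicle 4.

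The count of genes smaller than the sum depends on the control libraries. Without CD_vehicle 4 it was 275 against 12 larger, and without CD_vehicle 1 it was 76 against 4. With both left out it was 494 against 23. Leaving out any of the other 14 libraries gave between 10 and 19 smaller and between 0 and 4 larger. The medians moved less, from −0.19 to −0.28 for the rises and from 0.10 to 0.18 for the falls over the 16 ways of leaving out a library. Of the 31 called differences, 11 were called each time, and 9 of these belong to genes that double exposure changed: Cyp3a11, Limch1, Lpl, Elovl2, Ephx1, Cidec, Il1rn, Nudt7 and Usp2.

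Lpl was the clearest case of addition on one scale and shortfall on the other. It encodes lipoprotein lipase, which frees fatty acids from circulating triglyceride (chr8:68880491-68907448, plus strand). Lpl measured 29.1, 28.4, 30.1 and 54.2 CPM in CD_vehicle, 518, 487, 490.0 and 459.8 in CD_PFOA, 115, 122, 112 and 176 in HFD_vehicle and 576, 604, 571 and 579.6 in HFD_PFOA. No HFD_PFOA library overlapped any library of the other 3 groups. The change under both exposures was 4.04 ± 0.19 (edgeR adjusted p = 1.35e-11) and the sum 5.67, a difference of −1.63 ± 0.24 (edgeR adjusted p = 0.00971). In CPM, however, the single increments added up to 584, and the measured mean was 583 ± 14.6 (limma adjusted p = 0.99). The multiplied level would have been 1806 CPM. CD_vehicle 4 was the highest control at 54.2 CPM, and without it the log2 difference was −1.91.

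Among drug-metabolising genes, Cyp3a11, the main mouse enzyme of the PXR response (chr5:145854426-145879964, minus strand), measured 951, 1161, 1041 and 1267 CPM in CD_vehicle. It measured 4775, 4523, 4284 and 4879 CPM in CD_PFOA, 2679, 3454, 4687 and 3966 in HFD_vehicle and 5942, 5384, 5369.5 and 5300.5 in HFD_PFOA. Each single exposure raised it above all controls, and both together took it above all libraries of either. The combined change was 2.32 ± 0.14, the sum 3.80 and the difference −1.49 ± 0.19 (edgeR adjusted p = 0.00244). On the linear scale the mean of 5499 ± 298 CPM was under the added level of 7207 CPM but did not differ by test (limma adjusted p = 0.146). Ephx1, microsomal epoxide hydrolase, rose from 315, 336, 392 and 411 to 987, 1039, 897 and 917 CPM. Its combined change of 1.4 ± 0.10 was no larger than that of PFOA alone, 1.46 ± 0.10, with a difference from the sum of −0.83 ± 0.13 (edgeR adjusted p = 0.0132). Cyp2b10, the classic CAR target, rose from 1.13, 1.51, 1.87 and 0.214 to 178, 254, 234.9 and 189 CPM, a change of 7.51 ± 0.43 against 8.07 ± 0.44 for PFOA alone. Its difference from the sum, −2.55 ± 0.53, missed the threshold (edgeR adjusted p = 0.0547) and passed in 7 of 21 alternatives. Over the CAR and PXR list 8 of 26 tested genes rose and 5 fell under both exposures, while PFOA alone gave 15 and 1, and scaling by library totals gave 13 and 3 for both exposures. The difference between those counts was not tested.

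Limch1, an actin-binding regulator of non-muscle myosin (chr5:66745827-67057158, plus strand), had the largest called difference among the genes changed by double exposure. It measured 0.208, 1.1, 0.375 and 0.555 CPM in CD_vehicle, 4.86, 4.1, 4.93 and 3.07 in CD_PFOA, 10.4, 14.8, 9.99 and 12.8 in HFD_vehicle and 10.8, 9.33, 11.2 and 12.1 in HFD_PFOA. The doubly exposed libraries lay in or just under the range of the high-fat diet alone and above all libraries of PFOA alone. HFD_PFOA against CD_vehicle gave 4.28 ± 0.32, the sum 7.34 and the difference −3.07 ± 0.41 (edgeR adjusted p = 0.00328). Il1rn, the natural antagonist of the interleukin 1 receptor (chr2:24336853-24351494, plus strand), rose from 3, 1.92, 2.06 and 5.25 to 23.3, 29, 27.5 and 28.3 CPM. It reached 22.1 ± 5.45 CPM with PFOA and 14.2 ± 1.86 CPM with diet, and its difference from the sum was −1.91 ± 0.33 (edgeR adjusted p = 0.019). Usp2, a deubiquitinase with a daily rhythm (chr9:44067021-44095627, plus strand), rose from 4.63, 3.94, 2.25 and 5.13 to 14.2, 11.5, 12 and 5.95 CPM. Those values lay below all CD_PFOA libraries, 15.1, 25.8, 18.9 and 18.4 CPM, and within the range of HFD_vehicle or just under it. Against the sum, the difference was −2.46 ± 0.43 (edgeR adjusted p = 0.0192).

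**Figure D3:**
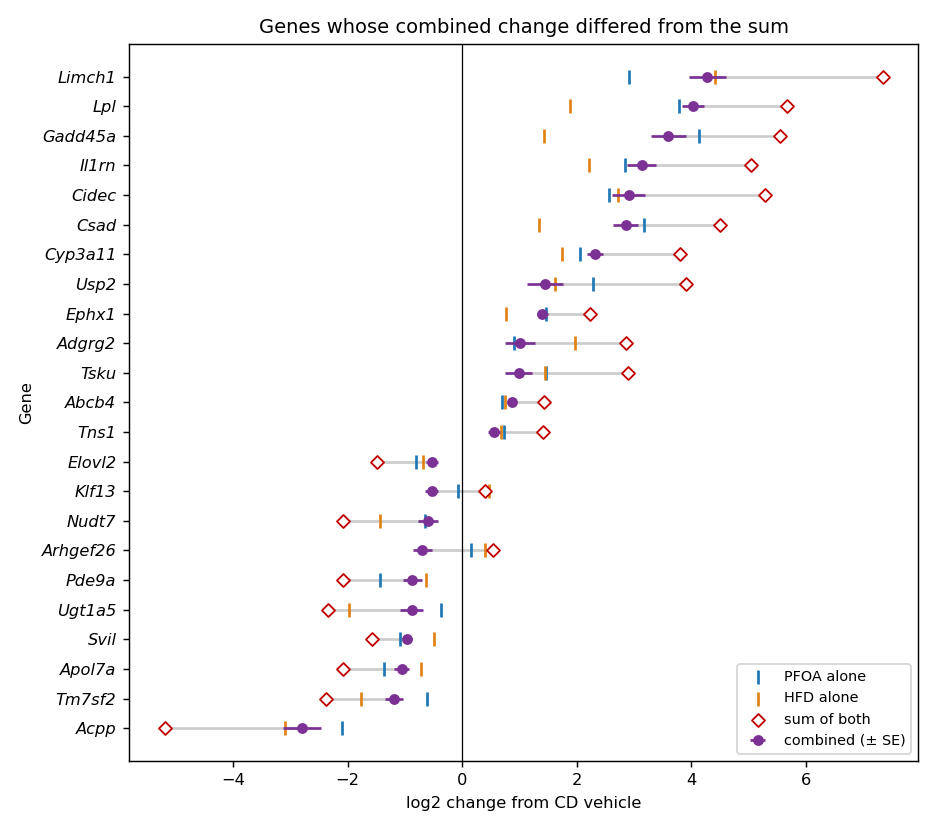
Log2 change from CD vehicle of the 23 genes changed by double exposure whose change differed from the sum: combined (purple, ± SE), PFOA alone and HFD alone (ticks), and their sum (red diamonds). In 21 genes the purple point lies nearer to 0 than the diamond; in Klf13 and Arhgef26 it lies on the other side of 0.

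Gadd45a, a growth arrest and DNA damage gene (chr6:67035096-67037457, minus strand), rose from 1.09 ± 0.447 to 13.4 ± 1.11 CPM and reached 19.3 ± 7.06 CPM with PFOA alone. Its difference of −1.95 ± 0.40 (edgeR adjusted p = 0.0469) was called in 4 of the 16 fits that leave out a library. The other rises smaller than their sum were Csad, the taurine-forming decarboxylase, with a difference of −1.66, the secreted proteoglycan gene Tsku with −1.91, the focal adhesion gene Tns1 with −0.84, the phospholipid exporter gene Abcb4 with −0.57 and the receptor gene Adgrg2 with −1.86. Of the same 16 fits, 11 called the difference for Csad, 15 for Tsku, 13 for Tns1, 4 for Abcb4 and 3 for Adgrg2. For Tsku, Tns1 and Adgrg2 the combined change (0.99, 0.56 and 1.01) was smaller than at least 1 of the single changes.

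Falls smaller than their sum were led by Acpp, prostatic acid phosphatase. It measured 46.6, 37.8, 46 and 32.7 CPM in CD_vehicle and 6.14, 4.75, 5.13 and 7.4 CPM in HFD_PFOA, where the diet alone had already taken it to 3.71, 6.48, 6.8 and 2.49 CPM. The combined change was −2.80 ± 0.33 and the difference from the sum 2.40 ± 0.46 (edgeR adjusted p = 0.0387). That difference was called in 6 of the 16 fits that leave out a library. Nudt7, a peroxisomal enzyme that breaks down coenzyme A (chr8:114133557-114154739, plus strand), fell from 318, 293, 318 and 194 to 257, 171, 159 and 156 CPM with overlap, a change of −0.60 ± 0.18. Under the high-fat diet alone it was lower, at 130.2, 116, 94.9 and 74.8 CPM. Its difference from the sum of 1.48 ± 0.26 (edgeR adjusted p = 0.0192) kept its call in all 16 fits without a library, while its combined call was lost in 5 of 21 alternatives. Tm7sf2, a sterol reductase of cholesterol synthesis, and Ugt1a5, a glucuronosyltransferase whose exons are partly shared with its gene cluster, were also lower with diet alone. Their means were 73.5 and 122 CPM in CD_vehicle, 21.5 and 30.9 in HFD_vehicle, and 32.3 and 66 in HFD_PFOA. The differences from the sum were 1.19 ± 0.22 and 1.46 ± 0.29, called in 6 and 4 of the 16 fits. Elovl2, which elongates polyunsaturated fatty acids, had a difference of 0.96 and the apolipoprotein gene Apol7a of 1.02. The cyclic GMP phosphodiesterase gene Pde9a had a difference of 1.21 and the actin-binding gene Svil of 0.61. The differences of Elovl2, Apol7a, Pde9a and Svil were called in 16, 8, 5 and 2 of the 16 fits.

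In 2 genes the combined fall went beyond the sum. Klf13, a zinc finger transcription factor (chr7:63886351-63938915, minus strand), measured 43.8, 52.7, 46.3 and 46.4 CPM in CD_vehicle, 37.7, 53.8, 41.9 and 46.4 in CD_PFOA, 58.8, 66.4, 74.8 and 62.4 in HFD_vehicle and 28.6, 34.3, 37.5 and 30.2 in HFD_PFOA. The doubly exposed libraries lay below every other library of the study. Together the exposures gave a change of −0.53 ± 0.12 (edgeR adjusted p = 0.00165), the sum 0.40 and the difference −0.93 ± 0.16 (edgeR adjusted p = 0.0192). Arhgef26, an exchange factor for small GTPases (chr3:62338344-62462221, plus strand), measured 24.7, 16.8, 24.7 and 22.3 CPM in HFD_PFOA and between 27.1 and 61.8 CPM in all libraries of the other groups. Its combined change was −0.70 ± 0.17 and its difference −1.24 ± 0.24 (edgeR adjusted p = 0.038), called in 5 of the 16 fits that leave out a library, against 14 of 16 for Klf13.

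In 8 more genes the difference from the sum was called although the combined change was not. Fabp5, a fatty acid-binding protein of skin and macrophages, fell from 19.1 ± 6.27 CPM to 3.48 ± 1.07 CPM with the diet alone and stood at 13.4 ± 2.14 CPM under both exposures. Its combined change was −0.51 ± 0.27 (edgeR adjusted p = 0.164) and its difference from the sum 2.58 ± 0.39 (edgeR adjusted p = 0.00996). The actin-binding gene Ivns1abp rose with the diet to 227.8 ± 22.3 CPM and measured 116 ± 16.4 CPM under both, against 135 ± 18.3 CPM in the controls. Its difference was −0.98 (edgeR adjusted p = 0.0164). The flavin monooxygenase gene Fmo5, the transcription factor gene Zbtb16 and Arrdc3, Adgrv1 and Adck1 were also among them. In Zbtb16 the mean was 52.8 CPM with diet and 19.2 CPM with both, and in Fmo5 it was 1834 and 1219 CPM.

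Cyp7a1, whose enzyme limits how fast bile acids are made (chr4:6265612-6275633, minus strand), fell under double exposure, while neither single change nor the difference from the sum passed the test. It measured 7.3, 9.16, 12.5 and 14.4 CPM in CD_vehicle and 3.26, 2.62, 5.52 and 3.76 CPM in HFD_PFOA, without overlap, a change of −1.51 ± 0.45 (edgeR adjusted p = 0.0159). The single changes were −0.01 ± 0.43 and 0.42 ± 0.43, and the difference was −1.93 ± 0.62 (edgeR adjusted p = 0.22). Without HFD_PFOA 2 the combined change was −1.37 (edgeR adjusted p = 0.0517). Over bile acid and organic anion genes 4 of 21 rose and 11 fell. The bile acid and drug exporter gene Abcc4 rose from 1.33, 3.02, 2.11 and 7.48 to 38.2, 105, 60.7 and 67.3 CPM, a change of 4.28 ± 0.38. Its difference from the sum was −1.89 ± 0.49 (edgeR adjusted p = 0.116), and without CD_vehicle 4 it was −2.59 (edgeR adjusted p = 0.00131). Cyp2c70, which makes muricholic acids, fell by 1.55 on the log2 scale.

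Cholesterol synthesis genes fell under double exposure, with a median nearer to 0 than that of the sum. Of 25 tested genes 20 fell and 0 rose, with a median of −0.84. PFOA alone gave 7 falls and a median of −0.51, and diet alone 22 falls and −1.17. The median sum was −1.69, and the median difference from the sum was 0.89, against 0.02 over all genes. Over the 25 genes CD_vehicle 1 was low, with a median deviation of −1.08, and CD_vehicle 4 high, with 0.95. Without CD_vehicle 4 the median difference was 0.54 and 16 genes fell, and without CD_vehicle 1 it was 1.11 and 23 fell. Only Tm7sf2 was called in that difference with all libraries, 10 genes were without CD_vehicle 1, and 1 was without CD_vehicle 4. Sqle, the enzyme that makes squalene epoxide, measured 11.6, 12.1, 28.7 and 137 CPM in CD_vehicle and 7.79, 14.8, 15.2 and 13.7 CPM in HFD_PFOA. CD_vehicle 4 stood far above the rest, and without it the change was −0.44 (edgeR adjusted p = 0.3) in place of −1.88 ± 0.56 (edgeR adjusted p = 0.0148). Insig1, which holds the sterol sensor in the endoplasmic reticulum, fell from 229.8, 289.7, 350.0 and 294 to 157, 142, 124 and 124 CPM without overlap, a change of −1.09 ± 0.13. Ebp, a sterol isomerase, fell by 0.70 on the log2 scale.

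Genes of fatty acid and triglyceride synthesis split. Of 24 tested, 5 rose and 10 fell, with a median of −0.27 and a median sum of −0.77. Scd2, a stearoyl-CoA desaturase usually low in adult liver, rose from 6.63, 9.48, 20.1 and 23.9 to 194, 540.5, 698 and 600.0 CPM, a change of 5.08 ± 0.42. Its liver counterpart Scd1 had a change of −0.20 ± 0.14 that did not pass the test (edgeR adjusted p = 0.305). Mogat1, which makes diacylglycerol, rose by 3.4 ± 0.22. Pklr, liver pyruvate kinase, fell from 426 ± 116 to 97.2 ± 9.2 CPM, and Fasn, fatty acid synthase, from 3129.7 ± 1389 to 1339.8 ± 131 CPM with overlapping libraries. Srebf1, the master regulator of this pathway, changed by −0.45 ± 0.18 (edgeR adjusted p = 0.0642), and −0.64 without CD_vehicle 4 (edgeR adjusted p = 3.99e-04). Pparg, the adipogenic receptor of fatty liver, changed by 0.17 ± 0.15 (edgeR adjusted p = 0.444), where the diet alone gave 0.63 ± 0.15. With CD_vehicle 1 and 4 left out Pparg changed by 0.46 (edgeR adjusted p = 0.0466) and Scd1 by −0.34 (edgeR adjusted p = 0.0499).

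**Figure D4:**
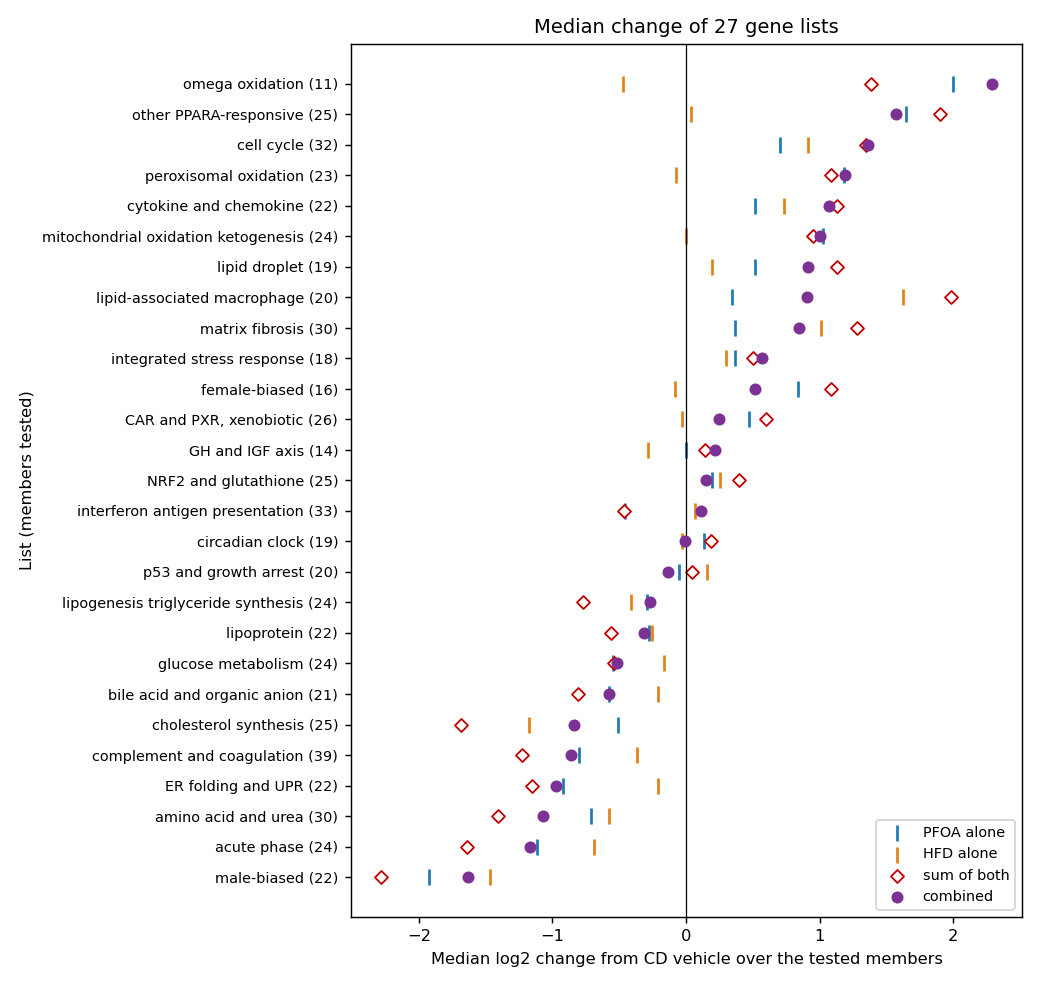
Median log2 change from CD vehicle over the tested members of 27 gene lists (number in brackets): combined (purple), PFOA alone and HFD alone (ticks) and the median sum (red diamonds). Oxidation lists have a combined median near that of PFOA alone. With all libraries, lipid-associated macrophage genes lie at 0.91 against a sum of 1.98. Their median difference from the sum was −1.02, and −1.45 without CD_vehicle 4, where their combined median was 1.41.

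Genes of lipid-laden macrophages and of the matrix rose in part under double exposure. Of 20 lipid-associated macrophage genes 9 rose and 1 fell, with a median of 0.91. CD_vehicle 4 lay above the mean of the other controls in 19 of the 20, with a median deviation of 0.91. Without CD_vehicle 4, 13 rose, 1 fell and the median was 1.41. With all libraries, diet alone raised 13 with a median of 1.63, PFOA alone 3 with 0.34, and the median sum was 1.98. Gene by gene, the median difference from the sum was −1.02, and −1.45 without CD_vehicle 4. Lpl was the single member called smaller than its sum with all libraries, and 8 were without CD_vehicle 4. With all libraries, 1 other member, whose combined change was not called, was called above its sum. Gpnmb, a glycoprotein of lipid-laden macrophages, measured 0.0834, 0, 0.281 and 2.18 CPM in CD_vehicle and 5.59, 37.2, 37.2 and 34.1 CPM in HFD_PFOA, where library 1 stood well below the others. HFD_vehicle libraries measured 15.9, 42.3, 38.5 and 86.4 CPM. The combined change was 5.45 ± 0.78 and the difference from the sum −3.87 ± 0.98 (edgeR adjusted p = 0.109), or −6.26 without CD_vehicle 4 (edgeR adjusted p = 0.00673). Trem2, the lipid-sensing receptor of these cells, measured 1.78, 2.87, 1.71 and 3.49 CPM in HFD_PFOA, above all controls and below all HFD_vehicle libraries at 5.14, 7.91, 5.6 and 8.66 CPM. Cd36, a fatty acid transporter (chr5:17781690-17888801, minus strand), rose from 184, 188, 258 and 302 to 745, 763, 727 and 768 CPM, a change of 1.69 ± 0.14 with a difference from the sum of −0.62 ± 0.19 (edgeR adjusted p = 0.187).

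Of 17 macrophage and Kupffer cell markers 5 rose and 2 fell, where 14.9% of all tested genes rose and 15% fell. Without CD_vehicle 4, 9 rose. Their summed level was 380.0 to 682 CPM in CD_vehicle, 711 to 961 in HFD_vehicle and 480.4 to 974 in HFD_PFOA. None of the 17 was at 0 in all libraries. Ccr2, the receptor of incoming monocytes, rose by 1.14 ± 0.29, and Lyz2, lysozyme, by 1.36 ± 0.33. Of 7 tested neutrophil markers 3 rose. S100a9 among them rests on HFD_PFOA 1, at 9.74 CPM against 1.21 to 1.63 CPM in the other 3: without that library its change was 0.71 (edgeR adjusted p = 0.472). Without CD_vehicle 2 or CD_vehicle 4, 1 neutrophil marker rose, and Ly6g was at 0 in every library. Summed neutrophil markers were low, 1.45 to 5.21 CPM in CD_vehicle and 7.49 to 28.8 CPM in HFD_PFOA. In bulk tissue fewer cells of a type and less RNA per cell cannot be told apart, and the part of these cells in the list's change was not tested.

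Extracellular matrix genes rose in 17 of 30 tested cases and fell in 2, with a median of 0.85 against 1.01 for diet alone and 1.28 for the sum. Col1a1, a chain of fibrillar collagen I, measured 10.3, 8.84, 10.49 and 26.6 CPM in CD_vehicle and 33.6, 39.6, 42.6 and 41.4 CPM in HFD_PFOA. All exposed libraries exceeded all controls, of which CD_vehicle 4 was the highest. The change was 1.48 ± 0.27 and the difference from the sum −1.08 ± 0.38 (edgeR adjusted p = 0.259), which was called without CD_vehicle 4 at −1.59 (edgeR adjusted p = 0.0019). Col4a2, of basement membrane, rose from 28.2 ± 5.8 to 77.9 ± 9.97 CPM with a difference of −0.26, and Col4a1 rose by 1.15 ± 0.15. Of 12 stellate cell markers 2 rose, or 1 without CD_vehicle 1, and 0 fell, and their sums were 384 to 678 CPM in CD_vehicle and 520.1 to 733 CPM in HFD_PFOA. Their part in the matrix result was not tested.

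Cytokine and chemokine genes rose in 9 of 22 cases and fell in 2, with a median of 1.07 and a median sum of 1.13. The count of rises was 14 without CD_vehicle 4 and 5 without HFD_PFOA 2 or HFD_PFOA 4. Cxcl12 and Il18, both made in resting liver, fell by 1.06 and 1.20 on the log2 scale. Of 33 interferon and antigen presentation genes 3 rose and 4 fell, and without CD_vehicle 4 it was 10 and 3. PFOA alone gave 0 rises and 15 falls with a median of −0.46, and diet alone 4 and 0 with 0.07. The median combined change was 0.11 and the median sum −0.47. Gene by gene, the median difference was 0.46, or 0.28 without CD_vehicle 4, and with all libraries 0 members differed from their sum by test. CD_vehicle 4 lay above the mean of the other controls in 32 of the 33. H2-K1, a class I antigen-presenting molecule, fell from 1040.1 ± 96 to 652 ± 35.7 CPM. T and NK cell markers gave 0 calls among 13, and B and plasma cell markers 1 fall among 9, or 4 without CD_vehicle 1. That fall, Igkc, rests on CD_vehicle 4, and without it the change was 0.55 (edgeR adjusted p = 0.301).

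Cell cycle genes rose under double exposure. Of 32 tested 18 rose and 0 fell, with a median of 1.36. PFOA alone gave 9 rises and a median of 0.70, diet alone 10 and 0.92, and the median sum was 1.34. With all libraries no gene of the list differed from its sum, and the median difference was −0.19. CD_vehicle 4 lay above the mean of the other controls in 27 of the 32. Without it the median difference was −0.56 and Cdkn3 was called smaller than its sum, and with CD_vehicle 1 and 4 left out the median difference was −0.67 and Ccnb2 and Cdkn3 were called. Mki67, the standard marker of cycling cells, measured 3.42, 3.66, 4.59 and 11.4 CPM in CD_vehicle and 12.6, 23.5, 39.9 and 22.1 CPM in HFD_PFOA. The groups did not overlap, with CD_vehicle 4 the highest control and HFD_PFOA 1 the lowest exposed library. Its combined change was 2.09 ± 0.35 (edgeR adjusted p = 1.29e-04), its sum 2.16 and the interval of the difference −1.06 to 0.92. Ccnb2, a mitotic cyclin, rose by 2.98 ± 0.46, and the phosphatase gene Cdkn3 by 4.72 ± 0.58 to a mean of 2.44 CPM. These are low levels, and which cells were cycling cannot be read from bulk RNA.

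Genes for proteins that hepatocytes fold and secrete fell under double exposure. All 22 tested genes of protein folding in the endoplasmic reticulum fell, with a median of −0.97, against −0.92 for PFOA alone. CD_vehicle 1 lay above the mean of the other controls in 21 of the 22, with a median deviation of 0.93. Without CD_vehicle 1 all 22 fell, with a median of −0.66. Pdia6, a disulfide isomerase, fell from 309 ± 114 to 117 ± 11.4 CPM without overlap, although CD_vehicle 1 stood above the other controls. Herpud1, which helps to degrade misfolded proteins, fell by 1.12, and the disulfide isomerase gene P4hb by 0.87 on the log2 scale. Complement and coagulation genes fell in 33 of 39 cases and rose in 0, with a median of −0.86 and a median sum of −1.22. The complement regulator gene C4bp fell from 554 ± 96.7 to 173 ± 12.7 CPM, the protease gene C1s1 by 1.24 and the lectin gene Mbl2 by 1.86 on the log2 scale.

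Acute phase genes fell in 16 of 24 cases, with a median of −1.17. CD_vehicle 1 was above the mean of the other controls in 24 of the 24. Without CD_vehicle 1, 12 fell and 2 rose, and the median was −0.44. Serpina3m, a serpin induced by inflammation, measured 565, 381, 411 and 310.0 CPM in CD_vehicle and 62.9, 72.4, 74.7 and 69 CPM in HFD_PFOA, far apart. The change was −2.58 ± 0.17. Crp fell by 1.07 on the log2 scale. Saa1, serum amyloid A, was at 1255 CPM in CD_vehicle 1 and between 20.7 and 37.2 CPM in the other controls, against 29.7, 9.62, 11.4 and 11.3 CPM in HFD_PFOA. Its combined change was −4.44 ± 1.0, −0.96 without CD_vehicle 1, and −0.77 with CD_vehicle 1 and 4 left out (edgeR adjusted p = 0.12). Without these 2 libraries 11 acute phase genes fell and 3 rose.

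Amino acid and urea cycle genes fell in 25 of 30 cases, with a median of −1.07 against −0.71 for PFOA alone, −0.57 for diet alone and −1.41 for the sum. Gnmt, which consumes the methyl donor of the liver, fell from 1277, 1628, 1480.4 and 1112 to 410.3, 299.6, 309 and 285 CPM without overlap, a change of −2.08 ± 0.16. Cbs, of the path from homocysteine to cysteine, fell by 1.64 and Prodh, proline dehydrogenase, by 2.08 on the log2 scale. In glucose metabolism 15 of 24 fell and 1 rose. Khk, which phosphorylates fructose, fell from 485 ± 62.2 to 118 ± 11.6 CPM, Slc37a4, the glucose 6-phosphate transporter, by 1.78 and Fbp1, of gluconeogenesis, by 1.19. Of 22 lipoprotein genes 3 rose and 12 fell. Apof fell by 1.68, and Vldlr, a receptor for triglyceride-rich particles that is low in normal liver, rose from 9.69 ± 2.84 to 64.2 ± 13.2 CPM.

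Hepatocyte markers fell beside these lists. Of 9 tested 8 fell and 0 rose, with a median of −1.25, none was at 0, and the summed ranges given above did not overlap. Ahsg, fetuin A, fell from 5721 ± 402 to 2411 ± 182 CPM, and Tat, tyrosine aminotransferase, by 1.80 on the log2 scale. Among the genes that rose, Ehhadh reached 16209 CPM and Cyp4a14 13402 CPM in HFD_PFOA. The part of these shifts in the falls was not tested.

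Sex-biased liver genes moved as well. Of 22 male-biased genes 13 fell and 2 rose, with a median of −1.63 and a median sum of −2.28. Gene by gene, the median difference from the sum was 1.43, and with all libraries only Nudt7 was called smaller than its sum. Without CD_vehicle 4, 6 were called smaller, and with CD_vehicle 1 and 4 left out 8 were smaller and 2 larger. Mup3, a major urinary protein, measured 4166, 6308, 5039 and 1946 CPM in CD_vehicle and 417, 164, 131 and 138 CPM in HFD_PFOA, a change of −4.36 ± 0.39. Mup20 rose with diet alone, to 979.6 ± 275 CPM, but measured 110.4 ± 29.6 CPM under both against 448 ± 36.1 CPM in controls, a change of −2.02 ± 0.23. Against the sum, the difference was −1.06 ± 0.32 (edgeR adjusted p = 0.175). Many Mup genes are near-identical copies, so values of single genes of this family may be uncertain. Of 16 female-biased genes 6 rose and 1 fell, with Cyp2b9 up from 164 ± 47 to 396 ± 28.1 CPM. CD_vehicle 4 and HFD_PFOA 1 deviated toward each other in the male-biased genes, by −0.97 and 0.997, and the part of this in the result was not tested. In the growth hormone and IGF list 1 of 14 rose, 4 fell and 9 were not called, with a median of 0.22. Igf1 fell by 1.17, Ghr, the growth hormone receptor, fell by 0.99 and Igfbp2 rose by 1.54 ± 0.21.

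The remaining lists were mixed. Of 25 NRF2 and glutathione genes 10 rose and 4 fell, with Gstm4 up by 1.23 ± 0.15 and Gsta3 down by 0.94, and without CD_vehicle 4 the number called smaller than the sum went from 1 to 6. In the integrated stress response 8 of 18 rose and 3 fell, or 1 fell without CD_vehicle 1. Trib3, a pseudokinase of that response, rose from 5.04 ± 1.54 to 33.6 ± 5.24 CPM, and Nupr1 by 2.32 ± 0.27. Of 20 p53 and growth arrest genes 6 rose and 3 fell. Clock genes gave 7 rises and 7 falls of 19: Dbp, an output gene of the clock, rose from 0.584, 0.275, 2.01 and 2.43 to 31.1, 21, 19.3 and 18.5 CPM, while Arntl and Cry1 of the core loop fell by 1.4 and 2.18. The labels give no hour of collection, so a shift in time of day between groups cannot be told apart from exposure. Sinusoidal endothelial markers gave 5 rises and 1 fall of 14, cholangiocyte markers 1 rise of 8 and erythroid markers 0 calls of 5. Among 3 tested adipocyte markers Fabp4 rose by 2.88 ± 0.23 and Car3 fell by 2.65, and the adipocyte hormone gene Lep was at 0 in every library. Exocrine pancreas and skeletal muscle had 1 tested marker each, not called.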

How the data were processed

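RNA was extracted from flash-frozen liver with RNeasy columns and sequenced as non-stranded libraries, per the labels' protocols. The build GRCm38 (mm10) and the programs STAR 2.5.2b, featureCounts (Subread 1.6.0), Trimmomatic 0.33 and bcl2fastq 2.20.0.422 are named, with no settings, per the submitters' processing notes. Which annotation release was counted was not given in the sources used here. Raw counts per gene were deposited by the authors for all 16 libraries. The table held 53465 genes, of which 14998 passed edgeR's filter on low counts and held 99.9% of the counts.

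Counts were scaled by TMM and fitted over all 4 groups, with no covariate, in edgeR 4.0.16 (R 4.3.3) by glmQLFit and glmQLFTest. Standard errors are the log2 change divided by the root of F. The sum on the linear scale was tested with limma 3.58.1 on CPM divided by the gene's mean. DESeq2 1.42.0, other scalings, no filter, the 8 libraries alone and each library left out were alternatives. The scripts were tested on simulated data. Lower bounds of folds use a floor of 3 counts over the group and, like intervals at 95%, are computed per gene, and the floor covers counting error only.

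Each library is 1 mouse, so the spread is between mice. Replicate numbers follow the order of the records and pair no mice. Named genes were the 8 largest rises and 8 largest falls with a mean of at least 1 CPM and no overlap, up to 5 called differences from the sum of each kind, the (up to) 3 lowest p-values of every list, and a fixed set of index genes; the other called differences were named after their values were seen. Members and lists were chosen with earlier results of these data known. The lists and the index set held 742 distinct genes, of which 738 were in the table. Some genes belong to several lists. Some single genes are not reported here.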

Additional observations from a re-analysis of the deposited data

Results flagged for a closer look

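Single libraries stood apart within a group in 31 of 288 gene and group pairs (10.8%), where the gap of the extreme library to its neighbour, as a share of the range, exceeded Dixon's 95% critical value for 4 samples. For normally distributed values chance gives about 1 in 20. The values here were untransformed CPM, of genes chosen partly by their values and measured in the same libraries. The share of flagged pairs is therefore a description and no measure of an excess over chance. HFD_PFOA 1 was the highest in 9 and the lowest in 2, CD_vehicle 4 the highest in 9, and CD_vehicle 1 the highest in 6 and the lowest in 1.

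CD_vehicle 4 was the highest control in Igkc (0.981), Igha (0.976), Lpl (0.933), Col1a1 (0.907), Ms4a1 (0.893), Trac (0.892), Gpnmb (0.871), Sqle (0.864) and Mki67 (0.853). CD_vehicle 1 was the highest in Saa1 (0.987), Cfd (0.898), Bhlha15 (0.878), C4bp (0.862), Cpt1a (0.862) and Eci2 (0.839), and the lowest in Rgs5 (0.865). CD_vehicle 3 was the highest in Cftr (0.837).

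HFD_PFOA 1 was the highest of its group in S100a9 (0.951), Saa1 (0.913), Serpina3k (0.903), Ahsg (0.894), Eci2 (0.893), Hsd17b11 (0.885), Mup3 (0.882), Cyp3a11 (0.87) and Nudt7 (0.852), and the lowest in Gpnmb (0.902) and Cpt1a (0.894). HFD_PFOA 2 stood apart in Serpina12 (0.872), HFD_PFOA 3, as the lowest, in Khk (0.894), and HFD_PFOA 4 in Plin4 (0.911).

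The effect of PFOA differed between the diets in 31 genes by edgeR's test, which is the same test as that of the difference from the sum. The 16 given here are those among the genes picked by rule, and other called genes are named above. The effect on the high-fat diet minus that on the control diet, on the log2 scale, was −3.07 for Limch1, −2.46 for Usp2, −2.38 for Cidec, −1.95 for Gadd45a, −1.91 for Il1rn, −1.63 for Lpl and −1.49 for Cyp3a11. It was −1.24 for Arhgef26, −0.93 for Klf13, −0.83 for Ephx1 and −0.57 for Abcb4. It was 2.4 for Acpp, 1.48 for Nudt7, 1.46 for Ugt1a5, 1.21 for Pde9a and 1.19 for Tm7sf2.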

How the results depend on the processing

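The number of genes changed by double exposure was 3729 to 4838 when single libraries were left out, 3645 with the 8 libraries alone and 4865 with DESeq2. With library totals in place of TMM scaling 3406 rose and 1331 fell, 6 differences from the sum were above it and 38 below, and 35 genes were smaller than the sum. Without a filter on low counts 290 differences were called (131 above, 159 below), with 199 genes smaller and 24 larger. DESeq2 called 223 (91 above, 132 below), with 151 smaller and 13 larger. On the linear scale 71 were called (34 above, 37 below), with 47 smaller and 7 larger. With CD_vehicle 1 and 4 left out 652 were called (280 above, 372 below), with 494 smaller and 23 larger, and the diet alone changed 2363 genes.

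Leaving out single libraries gave 13 to 352 called differences (3 to 119 above the sum, the highest of each without CD_vehicle 4), 10 to 275 genes smaller and 0 to 12 larger than the sum, and 881 to 2272 genes for diet alone. The combined change of Igkc was −2.88 to 0.55 over single left-out libraries: it reversed to 0.55 without CD_vehicle 4 and to 0.68 with CD_vehicle 1 and 4 left out, and that of Plin4 to 0.68 with both left out. The cause of these shifts was not tested. The circadian clock list's median went from −0.01 to 0.17, and the p53 list's from −0.13 to 0.05, under library totals. No paired analysis was possible because the replicate numbers follow record order and pair no mice. With 4 mice a group, the median standard error of a difference from the sum was 0.29, so small departures could not be called at this precision. Some large ones, such as those of Gpnmb, Cyp2b10 and Abcc4, were not called with all libraries either.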
